A study of Mus musculus with 9 samples.

Results

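The comparison described here sets 3 osteoblast cultures against 3 pre-osteoblast cultures of Kusa4b10, a stromal cell line from mouse bone marrow that can form bone-like cultures. These are 6 of the 9 samples of the series, and every gene with a single symbol on the array was compared, 19938 in all, each through 1 probe set. Pre-osteoblasts were undifferentiated Kusa4b10 cells. Osteoblasts were the same line after 21 days in ascorbate-supplemented medium, which drives collagen production and osteoblastic differentiation. Both groups carry the genotype of this 1 line, and no allele or further agent is named for either. The other 3 samples are osteosarcoma lines from C57BL/6 mice of the genotype Osx-Cre p53fl/fl Rbfl/fl, grown subconfluent below passage 8, and enter here only as levels beside a few genes. The labels call the Kusa4b10 samples independent, but all are cultures of 1 line, so the p-values measure the spread between such cultures. The effects of differentiation, of the days in culture, of the medium and of crowding cannot be told apart, and in bulk RNA fewer cells of a type and less RNA per cell cannot be told apart.

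A maturing osteoblast leaves the cell cycle, deposits a collagen matrix and loads it with mineral, which needs phosphatases, phosphate handling and acidic matrix proteins. It is also a secretory cell that signals to blood vessels, nerves, blood-forming cells and bone-resorbing osteoclasts, and it senses parathyroid hormone, growth factors and glucocorticoids through surface and nuclear receptors. Marrow stromal cells can become fat cells as well as osteoblasts, and a culture of such a line may hold both. Heavy secretion loads the endoplasmic reticulum, where the unfolded protein response raises chaperones and folding enzymes.

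Levels are log2 expression values of single arrays. All differences are osteoblast minus pre-osteoblast on the log2 scale and are given ± the standard error of the fit (n = 3 arrays per group). A gene is said to have risen or fallen when its adjusted p was below 0.05 (limma, two-sided, Benjamini-Hochberg over 19938 genes). A difference of 1 is a 2-fold change. Levels near the array's background compress a fold change, so large folds from a low level are likely to be understated, and no detection calls were used here. Correlations across genes, which share probes and array chemistry, were 0.994 to 0.998 among osteoblast arrays, 0.994 to 0.997 among pre-osteoblast arrays and 0.960 to 0.970 between the groups. Osteoblast replicate 2 stood apart from the other osteoblast cultures: the median difference from their mean was 0.99 over mitosis genes, 0.50 over cholesterol genes, 0.37 over osteoblast genes and -0.36 over adipocyte markers. Results for these groups are given with and without it. Where leaving out 1 array moved a count by over 1.5 times, the count without that array follows in parentheses, with O1 to O3 for the osteoblast and P1 to P3 for the pre-osteoblast replicates.

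Of 19938 genes, 2523 rose and 3793 fell, so the background is 12.7% called higher and 19.0% called lower, 31.7% in all. The median difference over all genes was 0.00. Among genes above the median level, fitted alone, 3449 fell and 2068 rose. Lists of mostly bright genes can thus hold larger shares of calls than all genes do, without a change particular to the list. At least 2-fold changes were called for 527 genes upward (2.64%) and 774 downward (3.88%). Changes of at least 10-fold were rarer and mostly upward, with 44 rises and 8 falls. Of the calls, 39.9% were rises, a share of 50.3% after quantile normalization was applied again and 44.1% with each array centred on its median, so the balance of small rises and falls rests on the scaling.

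**Figure D1:**
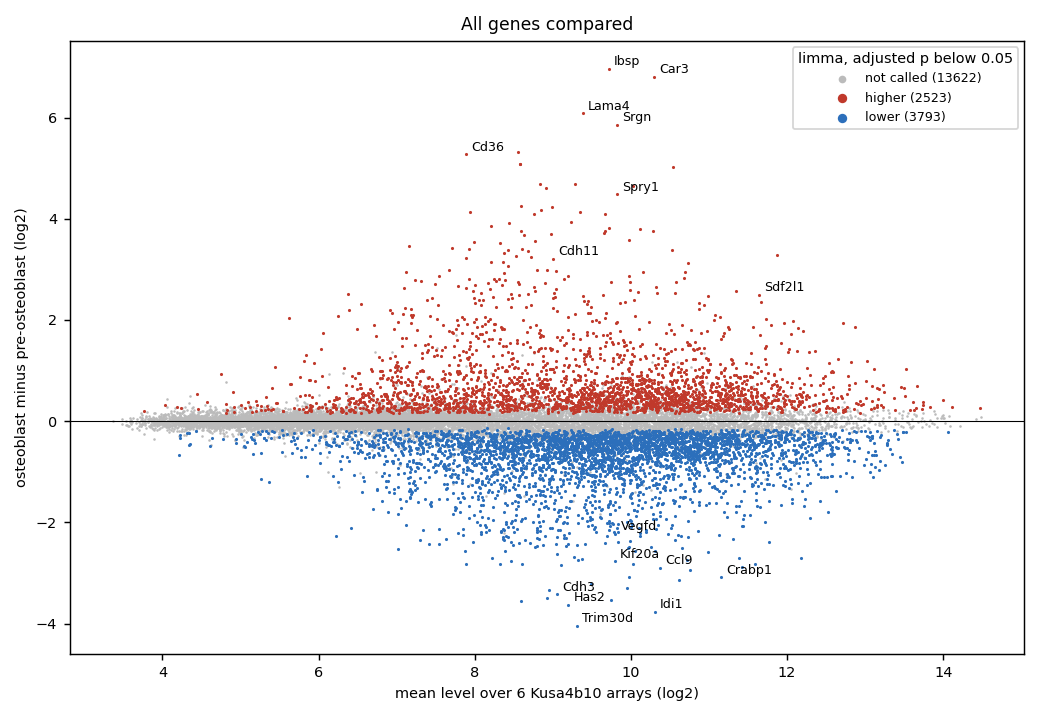
Mean log2 level over the 6 Kusa4b10 arrays (horizontal) against the log2 difference, osteoblast minus pre-osteoblast (vertical), for 19938 genes. Grey points did not pass the test, red points rose and blue points fell at an adjusted p below 0.05; the names mark rises and falls described in the text, and the tallest rises, Ibsp and Car3, reach 6.97 and 6.80.

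The osteoblast cultures had high levels of late osteoblast and osteocyte markers. Ibsp, bone sialoprotein, an acidic protein of mineralising matrix, was at 6.72, 5.97 and 6.01 in the pre-osteoblast arrays and at 13.07, 13.62 and 12.91 in the osteoblast arrays, and Dmp1, an osteocyte matrix protein, went from 6.36, 6.52 and 6.52 to 11.07, 10.35 and 10.75. Phex, an endopeptidase of phosphate balance, was at 8.59, 7.74 and 8.32 before and 12.11, 12.22 and 11.74 after differentiation. In all of these the groups did not overlap, with gaps larger than the spread within a group. Over all genes, 19.1% had every osteoblast array above every pre-osteoblast array and 25.1% had every one below. Of 32 measured osteoblast and mineralisation genes 18 rose and 2 (1 without O1, O3, P1 or P2, 4 without O2) fell, with a median difference of 0.78. Without osteoblast replicate 2 the median was 0.70 and 18 rose. Enzymes and channels that prepare mineral rose: Phospho1, a matrix-vesicle phosphatase (4.14 ± 0.17), Alpl, tissue-nonspecific alkaline phosphatase (3.76 ± 0.50), and Panx3, a pannexin channel of osteoblasts and cartilage (4.10 ± 0.46). Alpl and Panx3 were highest in osteoblast replicate 2, at levels of 11.80, 13.01 and 11.66 and 10.45, 11.91 and 10.07 in replicates 1, 2 and 3. Bmp8a, a bone morphogenetic protein, rose (1.92 ± 0.06), and Vdr, the vitamin D receptor, fell (-1.59 ± 0.24). Vdr was the only fall of the osteoblast and mineralisation list that reached 2-fold, and the other fall is not described here. The fibrillar collagen gene Col1a1 was already at 13.55, 13.41 and 13.55 in pre-osteoblasts and at 13.22, 13.72 and 12.99 in osteoblasts, and its difference did not pass the test (-0.19 ± 0.18, adjusted p = 0.490). Runx2, Spp1 and the Bglap genes are not described here.

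Among secreted products, matrix proteoglycans gave some of the largest differences. Srgn, serglycin, a proteoglycan of secretory granules, was at 7.06, 6.76 and 6.87 in pre-osteoblasts and at 12.53, 13.01 and 12.72 in osteoblasts. Lum, lumican, went from 5.73, 5.58 and 6.38 to 10.63, 11.80 and 11.23, and Dcn, decorin, from 7.92, 7.49 and 8.68 to 12.95, 13.23 and 12.99; both are small leucine-rich proteoglycans that set the width of collagen fibrils. All osteoblast arrays lay far above all pre-osteoblast arrays for these genes. Prelp (2.81 ± 0.20) and Fmod, fibromodulin (2.54 ± 0.41), of the same family, rose as well. Of 53 small proteoglycan and fibril-associated genes 12 rose and 14 fell, 8 and 8 of them at least 2-fold, and their median was 0.06. The falls held Vit, vitrin (-1.64 ± 0.20), Podnl1 (-1.51 ± 0.22), Fbln1, fibulin 1 (-1.50 ± 0.16), Tnxb, tenascin X (-1.32 ± 0.24), and Emilin2 (-1.27 ± 0.11). Bgn, biglycan, which was abundant in both groups, did not pass (-0.09 ± 0.05, adjusted p = 0.215).

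The basement membrane genes split between chains. Lama4, the laminin alpha 4 chain found around vessels, muscle and fat cells, was at 6.25, 6.34 and 6.42 in pre-osteoblasts and at 12.26, 12.75 and 12.27 in osteoblasts, a 68.0-fold difference (6.09 ± 0.14, adjusted p = 1.39e-05). The osteosarcoma lines lay at 11.50, 9.30 and 11.51, above every pre-osteoblast array and below every osteoblast array. Lama2 (2.98 ± 0.18), Lama1 (1.48 ± 0.30) and Lamb2 (1.01 ± 0.13) rose too. Nid1, nidogen 1, which links laminin to type IV collagen, fell (-1.24 ± 0.16), as did the heparan sulfate proteoglycans Hspg2, perlecan (-0.76 ± 0.11), and Agrn, agrin (-0.99 ± 0.18). Of 33 genes 10 rose and 7 fell, with a median of 0.11. Of 44 collagen chain genes 13 (7 without P2, 8 without P3) rose and 6 (13 without O2) fell, and the median was 0.06. The network-forming Col8a1 (3.57 ± 0.25) and the basement membrane zone Col15a1 (1.66 ± 0.16) led the rises, and Col6a1, a chain of beaded microfibrils, fell (-0.55 ± 0.10). Plod2, the lysyl hydroxylase that sets telopeptide cross-links in collagen, rose (1.63 ± 0.06), and so did P4ha1, a collagen prolyl hydroxylase (0.92 ± 0.14); of 63 genes of the secretory pathway and collagen export 19 rose and 11 (7 without O1, P1 or P3) fell, at a median of 0.03.

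Enzymes that cut matrix moved both ways. Of 79 metalloproteinase genes 10 (6 without P3) rose and 10 fell, with a median of 0.00. Mmp11 (2.01 ± 0.31), Mmp16 (0.83 ± 0.05) and Mmp14, the membrane collagenase of bone (0.75 ± 0.10), rose, while Adamts1 (-2.11 ± 0.09), Adam23 (-1.58 ± 0.10) and Adamtsl3 (-1.30 ± 0.06) fell. Of 21 cathepsin genes 5 rose, among them Ctsk, the collagen-degrading cathepsin K (1.80 ± 0.27), and Ctsf (1.60 ± 0.17), and 1 (0 without O1, O2, O3 or P3) fell. F13a1, the coagulation factor XIII transglutaminase subunit that cross-links matrix proteins, was at 6.83, 6.46 and 6.51 before and 11.18, 11.22 and 11.25 after differentiation. The osteoblast values of F13a1 differed by less than 0.1 among themselves. As a list, complement and coagulation genes followed no single direction, with 4 of 40 higher and 5 lower at a median of -0.04: Thbd, thrombomodulin, rose (1.71 ± 0.32), and C1rl (-1.45 ± 0.08) and Pros1, protein S (-1.43 ± 0.16), fell. Serpin genes were mostly not called, with 1 (0 without O1, O3, P2 or P3) of 47 higher and 5 (3 without O1, O3 or P3) lower and a median of 0.00. The intracellular serpins Serpinb6b (-2.51 ± 0.20) and Serpinb9 (-2.00 ± 0.07) fell.

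Hormones and carriers linked to fat cells rose beside the bone genes. Retn, resistin, was at 7.01, 6.75 and 7.06 in pre-osteoblasts and 11.97, 11.48 and 11.46 in osteoblasts. Adipoq, adiponectin, went from 9.05, 6.74 and 7.30 to 12.81, 11.95 and 12.28. The pre-osteoblast arrays differed from each other in Adipoq, replicate 1 being highest, but none reached an osteoblast array, and in the osteosarcoma lines Adipoq was at 6.16, 6.38 and 6.21. Rarres2, the chemoattractant adipokine chemerin, rose (2.70 ± 0.23). Of 45 adipokine and circulating peptide genes 11 rose and 3 fell, 8 and 1 at least 2-fold, with a median of 0.06. Nucb2, the nesfatin precursor (1.74 ± 0.16), and Nrn1, neuritin (1.73 ± 0.20), were further rises, while Apln, apelin (-1.47 ± 0.15), and Dbi, acyl-CoA binding protein (-0.86 ± 0.10), fell. Among lipid carriers and acute-phase proteins 11 (7 without O1 or P3, 6 without P2) of 32 rose and 3 fell, with a median of 0.05. Apoe, apolipoprotein E, went from 9.60, 8.99 and 8.93 to 12.63, 12.05 and 12.21, and Fabp4, a fatty acid binding protein of fat cells, rose by 2.96 ± 0.24. The acute-phase glycoprotein gene Orm1 (2.34 ± 0.35) and Cp, ceruloplasmin, a copper ferroxidase (2.34 ± 0.37), rose. Ptx3, pentraxin 3, fell (-1.62 ± 0.23).

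Growth factors for vessels changed in opposite directions within 1 family. Vegfc rose from 6.69, 6.63 and 6.50 to 8.24, 7.90 and 8.21, while Vegfd fell from 11.11, 10.80 and 10.83 to 8.90, 8.74 and 8.41; both encode ligands of the lymphatic receptor VEGFR3. Neither gene had overlapping groups. Pgf, placental growth factor, rose (1.98 ± 0.12), as did Rspo3, an R-spondin that strengthens Wnt signalling (3.15 ± 0.15), Ccn2, connective tissue growth factor (2.53 ± 0.17), and Esm1, endocan (1.41 ± 0.21). Sema3e (-2.19 ± 0.14) and Ptn, pleiotrophin (-2.16 ± 0.34), fell. Of 29 angiogenic and endothelial growth factor genes 9 rose and 14 fell, 7 and 5 at least 2-fold, and the median was -0.27.

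Guidance and nerve-directed factors were another group with many large changes. Of 24 neurotrophic and guidance factor genes 9 rose and 4 fell, 7 and 3 at least 2-fold, at a median of 0.20. The class 3 semaphorins, secreted ligands of neuropilin and plexin receptors, split: Sema3d went from 6.73, 7.23 and 7.03 to 10.39, 10.66 and 10.62, and Sema3f from 10.33, 10.26 and 10.16 to 8.53, 8.58 and 8.56. Sema3a (2.06 ± 0.14) and Sema3c (1.71 ± 0.29) moved with Sema3d. The Robo ligands Slit2 (2.78 ± 0.22) and Slit3 (2.37 ± 0.09) rose, and Nrg1, neuregulin 1, fell (-2.07 ± 0.08). Over the wider family of 52 semaphorins, plexins, ephrins and Eph receptors 13 rose and 15 fell, at a median of 0.04, and Sema7a, a membrane-anchored semaphorin (2.61 ± 0.10), and Plxnc1, its plexin receptor (2.05 ± 0.22), both rose.

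Most chemokine genes were not called, and those called fell. Of 34 chemokine genes 0 (1 without O2) rose and 9 fell, with a median of -0.07. The share that fell, 26.5%, is near the 19.0% of all genes. By limma, 0 were higher at an unadjusted p below 0.05 as well. Ccl9 went from 12.29, 11.38 and 11.79 to 9.32, 8.20 and 9.25, Cxcl10 from 10.12, 9.10 and 10.84 to 7.55, 6.84 and 7.18, and Ccl5 fell by 1.87 on the log2 scale (SE 0.25). Pre-osteoblast values of Cxcl10 varied over more than 1 log2 unit but stayed above every osteoblast value. Il6, interleukin 6, fell from a modest level (-2.11 ± 0.13), and Il1rn, the interleukin 1 receptor antagonist, fell from a high one (-2.08 ± 0.25). Il16 was a rise in the same group (1.62 ± 0.11), where 4 (2 without O1 or O3) of 29 genes rose and 3 fell at a median of -0.04. Most growth factor genes were not called: 2 of 22 FGF ligand genes rose and 1 fell (median 0.04), namely Fgf2 (0.70 ± 0.14), Fgf18 (0.67 ± 0.09) and, downward, Fgf7 (-1.08 ± 0.05). Fgf18 missed the threshold when all 9 arrays entered the limma fit (adjusted p = 0.0838). Of 30 BMP, GDF and TGF-beta ligand genes 4 rose, Tgfb1 among them (0.82 ± 0.09), and 1 (3 without O2, 2 without P2) fell, the activin chain gene Inhbb (-1.29 ± 0.13), with a median of 0.04. Igfbp5, an insulin-like growth factor binding protein of bone matrix, rose (1.90 ± 0.21).

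**Figure D2:**
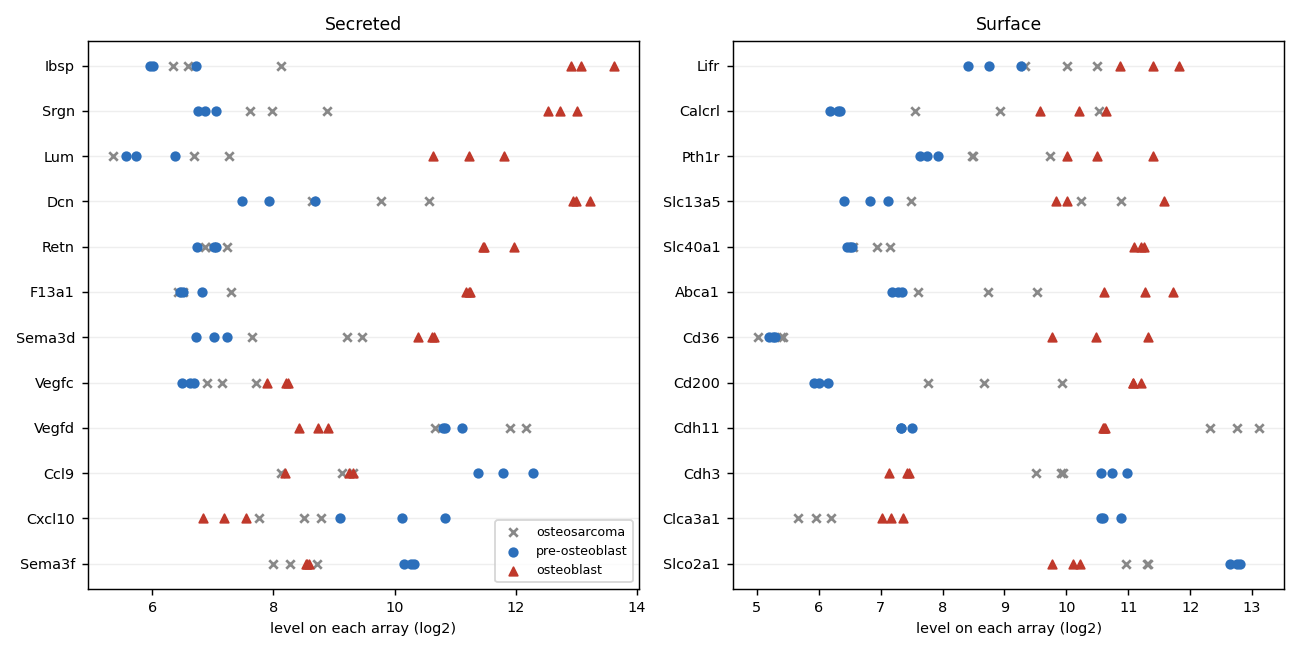
Log2 level on each array for secreted genes (left) and surface genes (right), 1 row per gene; blue circles are the 3 pre-osteoblast arrays, red triangles the 3 osteoblast arrays and grey crosses the 3 osteosarcoma lines. In every row the blue and red marks are separate: Srgn, Retn and Cd36 lie below 7.1 in pre-osteoblasts and above 9.7 in osteoblasts, and Vegfd, Ccl9 and Cdh3 run the other way.

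Cell-surface adhesion genes held large changes in both directions. Cdh11, the cadherin of osteoblasts and mesenchyme, went from 7.34, 7.33 and 7.51 to 10.62, 10.60 and 10.59, and Cdh3, P-cadherin, from 10.55, 10.98 and 10.74 to 7.13, 7.45 and 7.42. In the osteosarcoma lines Cdh11 was at 12.75, 12.32 and 13.12, above both Kusa4b10 groups. Cdh19 rose (2.04 ± 0.20), Cdh2, N-cadherin, did not pass (-0.30 ± 0.23, adjusted p = 0.392), and in all 4 of 23 cadherin genes rose and 2 fell, at a median of 0.00. Of 26 integrin genes 10 rose and 3 fell, 5 and 2 at least 2-fold, with a median of 0.13. The collagen-binding chains Itga10 (2.44 ± 0.23) and Itga11 (2.14 ± 0.23) rose with Itgb3 (1.68 ± 0.09) and Itgb8 (1.47 ± 0.08). The chains of the laminin and fibronectin receptors Itga3 (-1.17 ± 0.12) and Itga5 (-1.13 ± 0.07) fell. Gja1, connexin 43, which joins osteoblasts into a network, rose (1.17 ± 0.11), and the tight junction gene Cldn1 fell (-2.32 ± 0.10).

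Several CD molecules rose from near the lower end of the array's range. Cd200, an immunoglobulin-fold ligand that restrains myeloid cells, was at 6.15, 6.01 and 5.93 in pre-osteoblasts and 11.08, 11.20 and 11.08 in osteoblasts. Cd36, a scavenger receptor and fatty acid transporter, went from 5.19, 5.27 and 5.29 to 11.32, 9.77 and 10.49. The replicates of Cd200 were tight, while the Cd36 rise was smallest in osteoblast replicate 2. Itm2a (5.09 ± 0.32), the membrane protease Fap (4.13 ± 0.22) and the ectonucleotidase Nt5e, CD73 (3.26 ± 0.32), rose too. Over 80 adhesion and CD molecules 21 rose and 9 fell, with a median of 0.04, and the falls held Cd24a (-1.54 ± 0.07), Cd248, endosialin (-1.44 ± 0.26), and Nectin2 (-1.28 ± 0.08). Among 19 tetraspanins 3 rose and 7 fell at a median of -0.06; Tspan12 rose (1.93 ± 0.30).

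Receptors for hormones and growth factors held large single changes, while most members of these families were not called. Pth1r, the parathyroid hormone receptor, went from 7.75, 7.64 and 7.92 to 10.49, 11.39 and 10.01, and Calcrl, which pairs with RAMPs to bind CGRP and adrenomedullin, from 6.32, 6.19 and 6.34 to 10.20, 9.57 and 10.64. Mc5r, a melanocortin receptor, rose (2.65 ± 0.32). All osteoblast arrays lay above all pre-osteoblast arrays for these receptors, with Pth1r highest in osteoblast replicate 2. S1pr1, a sphingosine 1-phosphate receptor (-1.85 ± 0.20), the prostaglandin E receptor Ptger1 (-1.67 ± 0.19) and the VIP receptor Vipr2 (-1.37 ± 0.23) fell. Of 89 peptide, lipid and amine receptor genes 12 (7 without O1, O2, O3 or P2) rose and 13 fell, at a median of 0.03. Tshr, the thyrotropin receptor, was also among the largest rises (3.45 ± 0.26). Of 102 orphan and adhesion receptors of the same superfamily 15 rose and 13 fell (median 0.02), led by Gprc5c (2.87 ± 0.24, and 1.82 for its second probe set) and, downward, Adgrg2 (-1.64 ± 0.11).

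Among cytokine receptors 10 of 54 rose and 9 fell, with a median of 0.02. Lifr, the leukaemia inhibitory factor receptor, went from 9.27, 8.75 and 8.41 to 11.41, 11.83 and 10.87, and Ghr, the growth hormone receptor, rose by 1.73 ± 0.22. Tgfbr1 (1.53 ± 0.11) and Il6ra (1.04 ± 0.08) rose. The shared receptor chain Csf2rb (-2.13 ± 0.11) and Il13ra1 (-1.65 ± 0.15) fell. Of 55 receptor tyrosine kinases 11 (7 without O1 or P1, 6 without P2, 5 without P3) rose and 14 (9 without O1 or O3) fell, at a median of 0.03. Fgfr1, the FGF receptor of bone (1.90 ± 0.11), and Mertk (1.24 ± 0.23) rose, and the collagen receptor Ddr1 fell (-1.40 ± 0.11). Of 20 TNF receptor superfamily genes 3 (1 without O3) rose and 6 fell, with a median of -0.02; Tnfrsf19 rose (2.50 ± 0.42), Tnfrsf23, a decoy receptor, fell (-1.97 ± 0.15), and osteoprotegerin, Tnfrsf11b, did not pass (-0.02 ± 0.24, adjusted p = 0.958).

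Transporters held some of the steepest rises on the array. Slc40a1, ferroportin, the cellular iron exporter, was at 6.50, 6.45 and 6.54 in pre-osteoblasts and 11.26, 11.08 and 11.20 in osteoblasts, a 25.7-fold rise with replicates within 0.2 of each other (4.69 ± 0.06, adjusted p = 2.88e-06). Slc13a5, a citrate transporter, went from 6.83, 6.41 and 7.12 to 10.02, 11.58 and 9.82, highest in osteoblast replicate 2. Slc20a1, a sodium-phosphate cotransporter, rose by 1.21 ± 0.22. Over 376 solute carrier genes 61 rose and 52 fell, 21 and 15 at least 2-fold, at a median of 0.02. Amino acid carriers were divided: Slc7a2, for cationic amino acids (3.75 ± 0.25), and Slc7a11, the cystine exchanger (2.25 ± 0.28), rose, Slc7a8 (-1.93 ± 0.19) fell, and 10 of 33 rose and 8 fell in all (median 0.08). Slco2a1, which takes up prostaglandins, fell (-2.70 ± 0.12). Of 37 phosphate, calcium and mineral ion transport genes 14 (9 without O1, 8 without P3) rose and 3 fell, with a median of 0.10. Abca1, which exports cholesterol to apolipoproteins, went from 7.18, 7.35 and 7.28 to 11.72, 10.62 and 11.27, and of 48 ABC transporter genes 11 (7 without O1 or P1) rose and 5 fell (median 0.03). The drug efflux pump genes Abcb1b (-1.57 ± 0.12) and Abcg2 (-1.03 ± 0.07) fell.

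Channels were mainly not called. Of 87 potassium channel genes 7 (4 without P3) rose and 6 (3 without O3 or P3) fell (median 0.03), with Kcnma1, the large-conductance calcium-activated channel, upward (2.30 ± 0.31) and Kcnd1 downward (-1.70 ± 0.19). A second, dimmer probe set of Kcnma1 was at -0.03. Of 85 calcium, sodium, chloride, TRP and anoctamin channel genes 5 (3 without O1, P2 or P3) rose and 13 (8 without O1) fell, at a median of 0.00. Ano1, a calcium-activated chloride channel, rose (2.00 ± 0.25), and the voltage-gated calcium channel genes Cacna1b (-2.31 ± 0.28) and Cacna1c (-1.58 ± 0.07) fell. Clca3a1 and Clca3a2 gave differences of -3.50 and -3.33, but they are near-identical copies whose probes may share signal. Water channels Aqp1 (2.52 ± 0.08) and Aqp7, the glycerol channel of fat cells (2.44 ± 0.37), rose.

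Among signalling genes, feedback inhibitors of the ERK pathway held large changes in both directions. Spry1, a Sprouty inhibitor of receptor tyrosine kinase signalling, went from 7.78, 7.48 and 7.48 to 12.03, 11.88 and 12.28, while its relative Spry3 went from 9.56, 9.64 and 9.54 to 6.95, 7.52 and 7.39. Both gaps exceeded the spread within groups. Spry4 (1.63 ± 0.15), the ERK phosphatases Dusp4 (1.54 ± 0.20) and Dusp6 (0.95 ± 0.16) and the ERK-responsive factor Etv5 (1.03 ± 0.14) rose, and Dusp5 (-1.17 ± 0.09) and Dusp7 (-1.15 ± 0.11) fell. Of 30 such regulators 14 rose and 6 fell, with a median of 0.24. Of 30 immediate-early genes 13 (8 without P2) rose and 4 fell, at a median of 0.23. Klf4, a zinc-finger factor, went from 8.84, 8.65 and 8.56 to 11.12, 11.36 and 11.37, and Atf3 (1.80 ± 0.20), Egr2 (1.13 ± 0.18) and Myc (0.95 ± 0.08) rose. Protein kinases of the cascades themselves were 8 (5 without O1, 4 without O3 or P3) higher and 12 lower of 38 (median 0.04), with Map3k5, the stress kinase ASK1, upward (1.64 ± 0.10) and Map2k6 (-1.18 ± 0.15) and Mapk11 (-1.12 ± 0.20) of the p38 branch downward.

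Regulators of G protein and cAMP signalling, like all genes, fell more often than they rose. Of 68 genes 25 (36.8%) fell and 7 (4 without P2 or P3) rose (10.3%), with a median of -0.05. Of all genes 19.0% fell and 12.7% rose, and 35 of the 68 were brighter than the median gene. Rgs4, which shortens signalling by G proteins of the Gi and Gq classes, went from 10.13, 9.57 and 9.62 to 7.30, 7.43 and 7.36. The protein kinase A inhibitor Pkig (-1.66 ± 0.12), the anchoring protein Akap12 (-1.19 ± 0.07) and the phosphodiesterase Pde2a (-1.19 ± 0.18) fell, and Pde1a rose (1.49 ± 0.10).

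Cytokine and inflammatory signalling genes are read here against the 19.0% of all genes that fell and the 12.7% that rose. Most members were brighter than the median gene: 29 of 33 JAK-STAT, 33 of 38 NF-kappaB and 33 of 36 YAP genes. Such genes were called more often than all genes, so the all-gene shares understate the background for these lists. Of 33 JAK-STAT and SOCS genes 12 fell and 4 rose, at a median of -0.11, with Stat2, a transcription factor of interferon signalling (-1.39 ± 0.23), Stat5a (-1.12 ± 0.09) and the feedback inhibitor Cish (-0.83 ± 0.14) downward and the repressor Bcl6 upward (1.27 ± 0.10). Of 38 NF-kappaB and TNF receptor signalling genes 10 fell, a share of 26.3% that is near the background, and 1 (4 without O2) rose; the median of -0.09 turned to 0.01 after quantile normalization was applied again. Ripk3, the necroptosis kinase, fell (-1.66 ± 0.13), and Tlr4, the endotoxin receptor, rose (1.40 ± 0.14). Among YAP and TAZ pathway genes 8 (5 without O1, P2 or P3) of 36 rose and 14 fell (median -0.12). Ccn2 rose, as above, while Ankrd1, another commonly used target gene, fell (-1.22 ± 0.11) with the pathway scaffolds Amot (-1.37 ± 0.12) and Ajuba (-1.37 ± 0.09).

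In a joint list of glucocorticoid-responsive and circadian clock genes more members rose than fell, though the clock genes moved both ways. Of 34 genes 16 rose and 5 (3 without O3) fell, 8 and 2 at least 2-fold, with a median of 0.31. Mt2, metallothionein 2, went from 10.05, 10.19 and 10.43 to 13.63, 13.32 and 13.58, and Mt1 rose by 1.87 ± 0.14. Hsd11b1, which regenerates active glucocorticoid, went from 6.17, 6.33 and 6.02 to 8.62, 7.45 and 8.62, lowest among osteoblasts in replicate 2. The clock genes Rora (2.45 ± 0.15) and Bhlhe41 (1.49 ± 0.12) and the glucocorticoid-induced Klf9 (1.14 ± 0.21) rose. Clock genes moved both ways, since most of Arntl2, Nfil3, Nr1d1 and Tef were among the falls. Fkbp5, another member of the list, was not among the rises. Sgk1, a kinase induced by the same hormones, fell (-1.63 ± 0.14), and the receptor gene Nr3c1 did not pass (0.16 ± 0.07, adjusted p = 0.133). In insulin and PI3K signalling 9 of 49 genes rose and 9 fell, at a median of 0.02: Trib3, an AKT-binding pseudokinase, rose (1.96 ± 0.28), and the mTOR inhibitor Deptor fell (-1.15 ± 0.15). The protein tyrosine phosphatase Ptprd rose steeply (3.33 ± 0.30).

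**Figure D3:**
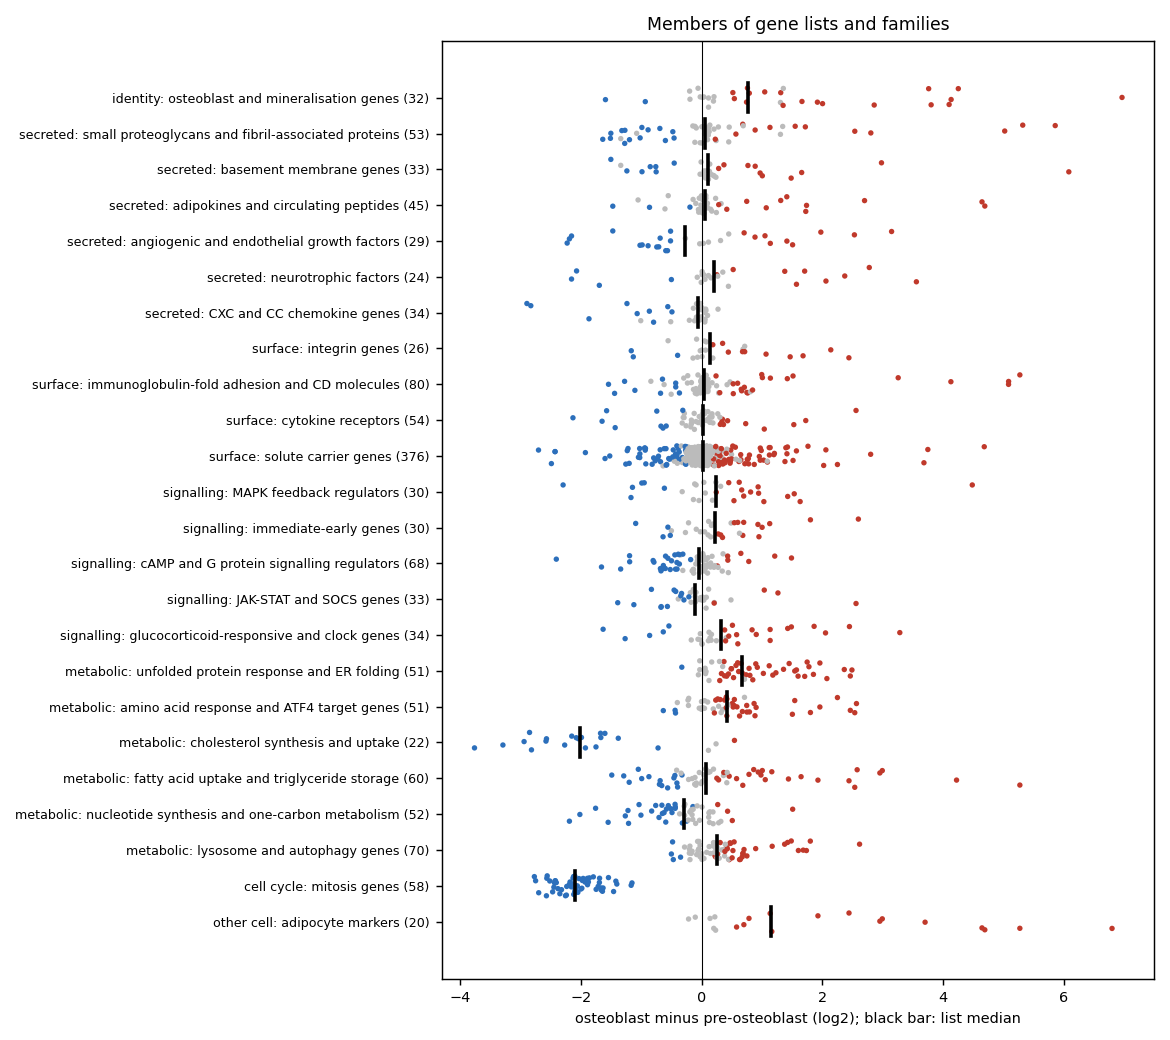
Log2 difference, osteoblast minus pre-osteoblast, of every measured member (points) of 24 gene lists and families, grouped by role; black bars are list medians, coloured points passed the test (red higher, blue lower) and grey points did not. The mitosis and cholesterol lists lie almost wholly below 0 with medians of -2.09 and -2.02, and the unfolded protein response list lies mostly above 0 with a median of 0.67.

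The unfolded protein response list had the highest share of rises among the metabolic lists. Of 51 genes of ER folding and stress 38 rose, 18 at least 2-fold, and 1 (0 without O1, O2, P1, P2 or P3) fell, with a median of 0.67 against 0.00 over all genes. Sdf2l1, an ER chaperone component, went from 10.15, 10.69 and 10.34 to 12.83, 12.67 and 13.16, and Ddit3, the stress factor CHOP, from 10.26, 9.33 and 9.68 to 12.20, 12.01 and 12.46. The groups did not overlap. The BiP co-chaperone Dnajb9 (2.37 ± 0.20) and the disulfide-forming oxidase Ero1b (2.08 ± 0.27) rose. Xbp1, a transcription factor of this response that is regulated by splicing as well as by level, did not pass (0.07 ± 0.08, adjusted p = 0.571).

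Amino acid response genes and targets of the transcription factor ATF4 also rose more often than they fell. This list shares members with the unfolded protein response list, Ddit3 and Trib3 among them, so the counts of the lists are not separate results. Of 51 genes 30 rose, 8 at least 2-fold, and 3 (5 without O2 or P2) fell, with a median of 0.42. Nupr1, a stress-induced chromatin protein, went from 10.50, 9.83 and 9.85 to 12.66, 12.47 and 12.75, and Slc7a11, Vldlr (2.54 ± 0.34) and Trib3 rose. Asns, asparagine synthetase, a textbook target of this response, was at 13.29, 13.19 and 13.16 in pre-osteoblasts and at 13.14, 13.24 and 13.25 in osteoblasts, which overlap. Psat1, a serine synthesis enzyme, fell (-0.44 ± 0.07).

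ATF4 acts through a composite element, so the 250 bases before each RefSeq start (GRCm38.p6) were searched for the letters TGATGNAA on either strand. They occurred in 11 of 43 list genes with an entry (25.6%), against 3.14% of 15614 tested genes and 3.45% of all 32851 promoters. Of the 11 genes with a match 7 rose, 1 fell and 3 were not called, with a median difference of 0.71, and of the 32 without one 19 rose and 2 fell with a median of 0.42. A match is a description of the letters and not a bound site. The list was made of amino acid response genes and ATF4 targets, so its higher share may follow from that choice. Herpud1 rose (1.54) and Pck2 fell (-0.63), and both hold a match but are not shown. The stretches around the matches are shown for the rises of 1.80 to 2.57 and for Asns, which did not pass the test. The stretches run 5′ to 3′ on the gene's strand with the matching letters in capitals.
Slc7a11: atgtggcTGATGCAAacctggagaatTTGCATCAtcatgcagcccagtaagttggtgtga
Nupr1: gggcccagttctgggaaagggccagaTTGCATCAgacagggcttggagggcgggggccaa
Atf3: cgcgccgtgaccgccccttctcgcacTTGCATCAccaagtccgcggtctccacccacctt
Vldlr: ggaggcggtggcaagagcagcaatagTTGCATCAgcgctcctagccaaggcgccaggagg
Asns: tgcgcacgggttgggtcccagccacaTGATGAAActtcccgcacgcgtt
They lie at chr3:50443627-50443686 (minus strand) for Slc7a11, chr7:126625547-126625606 (minus strand) for Nupr1, chr1:191183410-191183469 (minus strand) for Atf3, chr19:27216794-27216853 (plus strand) for Vldlr and chr6:7693210-7693258 (minus strand) for Asns. Slc7a11 holds 2 matches, on opposite strands, and each of the others holds 1. Asns, whose level overlapped between the groups, also matches TGATGNAA, as do the genes shown that rose by 1.80 to 2.57.

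Cholesterol synthesis fell across the pathway. Of 22 genes of cholesterol synthesis and uptake 19 fell, 18 of them at least 2-fold, and 1 (0 without O1, O3, P2 or P3, 2 without P1) rose, with a median of -2.02. Idi1, which isomerises the isoprenoid unit, went from 12.15, 12.19 and 12.22 to 8.08, 9.29 and 7.90. Osteoblast replicate 2 was the highest osteoblast culture and still more than 2 log2 units below every pre-osteoblast array. Without that array the list median was -2.19 and 19 genes fell. Enzymes along the route fell: Cyp51, lanosterol demethylase (-2.94 ± 0.37), Tm7sf2, a sterol reductase (-3.29 ± 0.17), Nsdhl (-2.82 ± 0.16), Lss, lanosterol synthase (-2.58 ± 0.16), and Dhcr7 (-2.57 ± 0.24), as did the sterol carrier Stard4 (-2.85 ± 0.15). Ebp, a sterol isomerase of the same route, gave 0.24 ± 0.09, adjusted p = 0.0808, short of the threshold. In the osteosarcoma lines Idi1 lay at 11.45, 11.78 and 11.40, below the pre-osteoblast arrays and above every osteoblast array.

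The letters CCAAT, the core of the site for the factor NF-Y, which works beside sterol-regulated factors at these genes, were searched in the same windows. They occurred on either strand in 18 of 18 cholesterol genes with an entry (100%), against 38.8% of tested genes and 33.8% of all promoters. Of these 18 genes 15 fell, 1 rose and 2 were not called. Since every 1 of them held the letters CCAAT, these letters do not separate the falls from the rest. The mitosis list held them in 66.0% of 50 genes and the unfolded protein response list in 68.2% of 44. The letters TCACNCCAC, a form of the sterol response element, occurred in 1 of the 18 (5.56%), against 1.20% of tested genes. The nearest match to the start is shown for 4 of the steepest falls, with matching letters in capitals, either as CCAAT or, read from the other strand, as ATTGG.
Idi1: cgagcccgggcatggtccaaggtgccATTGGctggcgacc
Tm7sf2: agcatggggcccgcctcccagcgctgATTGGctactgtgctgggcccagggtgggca
Cyp51: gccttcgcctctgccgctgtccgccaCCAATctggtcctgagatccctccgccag
Nsdhl: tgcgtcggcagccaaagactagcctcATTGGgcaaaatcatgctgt
They lie at chr13:8885566-8885605 (plus strand) for Idi1, chr19:6067867-6067923 (minus strand) for Tm7sf2, chr5:4104698-4104752 (minus strand) for Cyp51 and chrX:72918475-72918520 (plus strand) for Nsdhl in GRCm38.p6. The matches begin 14, 47, 29 and 20 bases before the start, and all but that of Cyp51 are on the other strand.

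Fat storage genes rose more often than they fell, and fat synthesis genes, like all genes, fell more often than they rose. Of 60 genes of fatty acid uptake and triglyceride storage 23 rose, 13 at least 2-fold, and 15 (9 without O3) fell, with a median of 0.07. Gpd1, which makes the glycerol backbone (4.23 ± 0.31), the droplet coat gene Plin1 (3.00 ± 0.30) and Mgll, monoglyceride lipase (2.58 ± 0.31), rose with Cd36 and Fabp4, and the caveolar genes Cav1 (-1.29 ± 0.17) and Cavin1 (-1.05 ± 0.13) fell. In fatty acid synthesis and desaturation 17 of 37 fell and 6 rose, at a median of -0.14. Acss2 (-2.63 ± 0.14) and Acly (-1.67 ± 0.08), which supply acetyl-CoA, and Elovl6, an elongase (-1.61 ± 0.09), fell. Fatty acid oxidation and peroxisome genes gave 24 falls (35.8%) and 9 rises of 67 (median -0.13). Of all genes 19.0% fell, and 56 of the 67 were brighter than the median gene, where calls were more frequent. Acadm, medium-chain acyl-CoA dehydrogenase, fell (-1.05 ± 0.08). Ppargc1a, the coactivator PGC-1 alpha, went from 6.65, 6.48 and 6.41 to 9.03, 8.03 and 8.53.

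Glycolysis genes moved both ways, and TCA cycle genes, like all genes, fell more often than they rose. Of 31 glycolysis and lactate genes 5 rose and 9 fell (median 0.01): Pfkfb3 (1.90 ± 0.19) and Hk2, hexokinase 2 (1.40 ± 0.05), rose, and Pfkfb4 (-1.24 ± 0.16) and Aldoc (-1.21 ± 0.15) fell. Of 32 genes of the TCA cycle and pyruvate oxidation 14 (43.8%) fell and 3 rose, with a median of -0.24. All 32 were brighter than the median gene, where calls were more frequent. Idh1 fell (-1.09 ± 0.12) and Pcx, pyruvate carboxylase, rose (1.15 ± 0.22). Of 81 respiratory chain subunits 13 (7 without O1) rose and 18 (11 without P1) fell, with a median of 0.00. The large rises there were tissue-specific subunits of cytochrome oxidase: Cox8b went from 7.08, 6.98 and 6.95 to 10.86, 9.74 and 10.52, and Cox6a2 rose by 1.73 ± 0.11 and Cox7a1 by 0.78 ± 0.12. These are forms known from muscle, and some of them, Cox8b included, also from brown fat. Txnip, which restrains glucose uptake, fell (-1.97 ± 0.36), and Slc2a4, the insulin-responsive glucose transporter, rose (1.14 ± 0.21); over 27 glucose transport genes 3 rose and 4 (2 without O1, O3 or P3) fell (median 0.03).

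Nucleotide synthesis and proteasome genes, like all genes, fell more often than they rose. Cytosolic ribosomal protein genes rose more often than they fell. Of 52 nucleotide synthesis and one-carbon genes 26 (16 without O1) fell and 4 (2 without O3 or P3) rose, at a median of -0.28, with Cda, cytidine deaminase (-2.02 ± 0.07), Tk1, thymidine kinase (-1.76 ± 0.30), and Pnp (-1.55 ± 0.09) downward. Of 48 proteasome genes 27 fell and 4 (2 without P3) rose, with a median of -0.31, and Psme1, an interferon-inducible activator, fell most (-1.08 ± 0.13). Cytosolic ribosomal proteins gave 20 (13 without O1 or O3) rises and 3 falls of 61 (median 0.10), none of them 2-fold. Mitochondrial ribosomal proteins gave 6 (2 without O1, O3 or P3) rises and 22 falls of 77, with a median of -0.08 that turned to 0.00 after quantile normalization was applied again.

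Lysosome and autophagy genes rose more often than they fell. Of 70 genes 30 rose and 4 (1 without O1, O3 or P3, 2 without O2) fell, 9 upward and 0 downward at least 2-fold, with a median of 0.26. The sorting receptor Sort1 (2.62 ± 0.22), the proton pump subunit Atp6v0d2 (1.74 ± 0.20) and Mitf, a transcription factor of lysosomal genes (1.68 ± 0.15), led the rises with Ctsk. A second probe set of Mitf, at a mean level of 4.30, showed no difference (0.00). Among metal genes 13 (8 without O1) of 33 rose and 5 (3 without O2) fell (median 0.20), led by Slc40a1, Mt2 and Cp, and the reductases Steap1 (-1.40 ± 0.12) and Steap2 (-1.20 ± 0.12) fell. Of 60 glutathione and antioxidant genes 16 (7 without O1, O3 or P3, 10 without P2) rose and 18 fell, at a median of 0.01. Sod3, the extracellular superoxide dismutase, rose (2.40 ± 0.13), and Mgst2, a microsomal glutathione transferase, fell (-2.25 ± 0.16).

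Small-molecule metabolism held further steep single changes. Car3, carbonic anhydrase 3, an enzyme abundant in fat and muscle, went from 7.29, 6.74 and 6.65 to 13.74, 13.64 and 13.70, and Car6, a secreted isoform, from 6.56, 6.66 and 6.20 to 10.06, 10.33 and 10.82. Both sets of arrays were fully separate. Car5b rose (1.52 ± 0.25) and Car12 fell (-1.30 ± 0.20); of 16 carbonic anhydrases 4 rose and 1 fell (median 0.06). Cdo1, cysteine dioxygenase, went from 6.91, 6.63 and 6.78 to 11.40, 10.65 and 10.76, and Gatm, the first enzyme of creatine synthesis, from 10.89, 11.32 and 11.07 to 7.56, 8.35 and 7.73. Around them 12 (7 without P3) of 52 genes of amino acid breakdown, creatine and polyamines rose and 10 (6 without P1 or P3) fell, at a median of 0.04. Ptgis, prostacyclin synthase, went from 7.61, 7.54 and 7.72 to 11.76, 11.94 and 11.46. The retinoic acid carriers moved oppositely, Crabp1 from 12.08, 12.84 and 13.18 to 9.33, 9.85 and 9.67 and Crabp2 from 7.35, 7.27 and 7.68 to 9.04, 9.63 and 9.13. Over 61 genes of retinoid, steroid and prostanoid metabolism 14 rose and 12 fell, with a median of 0.04. Has2, a hyaluronan synthase, went from 11.31, 11.09 and 10.62 to 6.59, 8.79 and 6.76, with osteoblast replicate 2 between the other osteoblasts and the pre-osteoblasts. Of 59 glycosaminoglycan enzymes 13 (8 without P3) rose and 17 fell (median -0.05): Chst11, a chondroitin sulfotransferase, rose (2.01 ± 0.07), and Hs6st2 (-2.02 ± 0.15), which sulfates heparan sulfate, fell. Galnt3, which glycosylates the phosphate hormone FGF23, rose (2.99 ± 0.20).

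**Figure D4:**
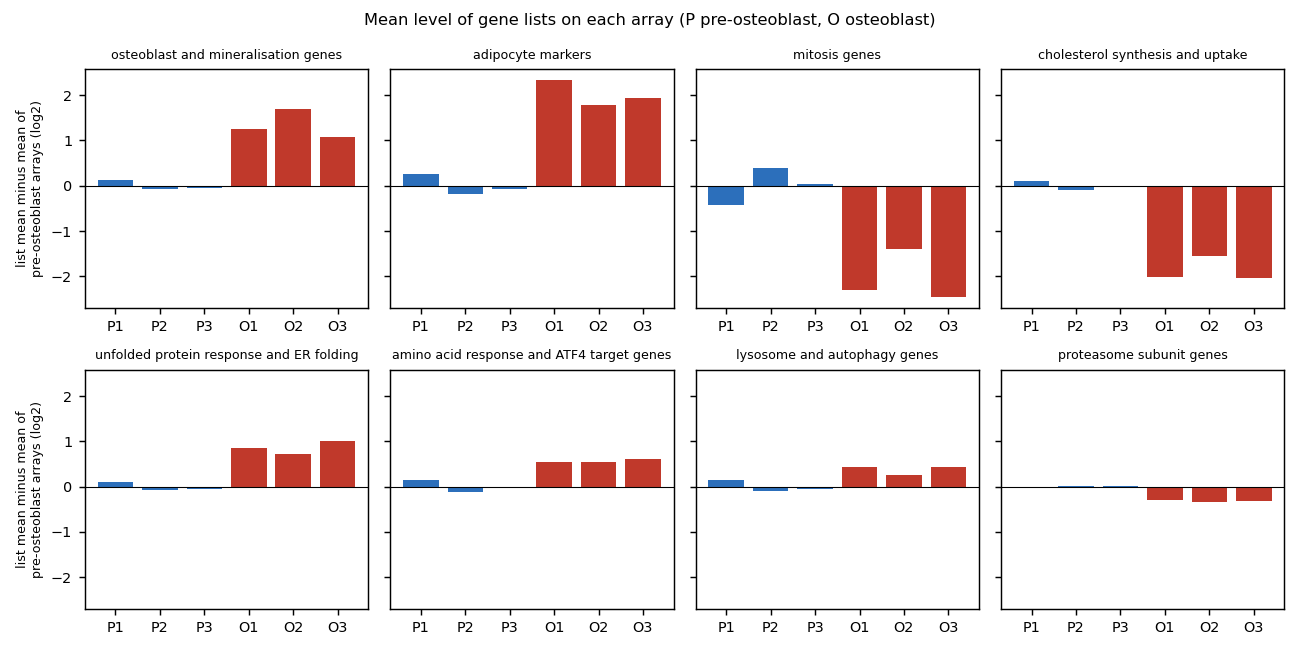
Mean log2 level of 8 gene lists on each Kusa4b10 array, relative to the mean of the 3 pre-osteoblast arrays; bars are single arrays, blue pre-osteoblast and red osteoblast replicates 1 to 3 from left to right. In the mitosis and cholesterol panels osteoblast replicate 2 lies nearer to the pre-osteoblasts than replicates 1 and 3, and in the panels of folding, ATF4 and lysosome genes all osteoblast arrays lie above all pre-osteoblast arrays.

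Cell division genes fell throughout. All 58 measured mitosis genes fell, each at least 2-fold, with a median of -2.09. Kif20a, a kinesin of cytokinesis, went from 10.77, 11.58 and 11.17 to 8.08, 9.11 and 8.02, Cdc25c, which triggers mitotic entry, fell (-2.57 ± 0.25), and so did Racgap1, of the central spindle (-2.52 ± 0.39). Osteoblast replicate 2 kept the highest levels of the osteoblast cultures. Without it the list median was -2.42 and 58 of 58 fell, and the number that fell ranged from 54 to 58 when any 1 array was left out. Gadd45a, which restrains the cycle after damage, rose (3.83 ± 0.35).

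Markers of other cell types were read as lists. Of 20 adipocyte markers 14 rose, 11 at least 2-fold, and 0 fell, with a median of 1.15. Their mean level was 7.70 to 8.15 in the pre-osteoblast arrays and 9.67 to 10.22 in the osteoblast arrays. Pparg (0.20 ± 0.15, adjusted p = 0.363) and Cebpa (0.22 ± 0.19, adjusted p = 0.463), the transcription factors that define fat cells, did not pass, and Pparg was already at 11.84, 11.61 and 11.61 in pre-osteoblasts. Without osteoblast replicate 2, which had the lowest level of these markers among osteoblasts, 14 rose with a median of 1.36. The part of fat cells in the rises of Cd36, Fabp4, Adipoq, Retn, Plin1 and Car3 was not tested. Haematopoietic and macrophage markers gave 0 rises and 1 (0 without O1) falls of 21, endothelial markers 0 and 1 of 16, and epithelial markers 0 and 2 of 15, with medians of -0.04, 0.01 and 0.00. At an unadjusted p below 0.05 in the limma fit, 1 haematopoietic marker was higher, 0 endothelial or epithelial markers were higher, and 0 adipocyte markers were lower. Mean levels of these lists lay between 6.49 and 7.34 on every Kusa4b10 array, below the median gene level of 7.96. The epithelial falls held Sprr1a, an envelope gene (-3.54 ± 0.34). Of 13 osteoclast markers 5 (3 without P3) rose, among them Ctsk, Atp6v0d2 and Itgb3, and 3 (1 without O1, P1 or P3) fell, while Mmp9 (0.10 ± 0.12, adjusted p = 0.584) and Ocstamp (0.12 ± 0.07, adjusted p = 0.242) did not pass. Chondrocyte markers gave 5 (2 without O1, P1 or P2, 1 without P3) rises and 1 (0 without O1, O3, P1 or P3) falls of 19 (median 0.08), and Col2a1, the defining cartilage collagen, did not pass (0.20 ± 0.10, adjusted p = 0.210). Muscle and pericyte markers gave 2 (1 without O3, P1, P2 or P3) rises and 5 (2 without O1 or P3, 3 without O3 or P1) falls of 22 (median -0.05), with the contractile gene Cnn1 at -1.50 ± 0.13. Fibroblast and tendon markers gave 2 (1 without O2, O3, P2 or P3) rises and 3 (1 without O1, O3, P1 or P3) falls of 19 (median 0.04), with S100a4 at -1.66 ± 0.17.

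Further steep changes lay outside these groups. Trim30d went from 11.46, 10.98 and 11.54 to 7.33, 7.22 and 7.31, Irf5, an interferon regulatory factor, fell (-2.76 ± 0.11), and so did Lgals9, galectin 9 (-2.88 ± 0.13). In the osteosarcoma lines Trim30d lay at 6.80, 6.28 and 4.84, lower than in either Kusa4b10 group. Tgfbi, a matrix protein induced by TGF-beta, fell (-3.13 ± 0.19), as did Lrrc17, which limits osteoclast formation (-3.08 ± 0.30). Enpp6, a choline phosphodiesterase (3.40 ± 0.11), and Lgals12, galectin 12 of fat cells (3.70 ± 0.29), were among the steep rises.

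Within families, some related members moved in opposite directions. Vegfc and Vegfd, Sema3d and Sema3e, Cdh11 and Cdh3, Itga11 and Itga5, Spry1 and Spry3, Crabp2 and Crabp1, Slc7a2 and Slc7a8, and Car3 and Car12 are pairs in which 1 member rose and the other fell, and the groups were separate for every member. These pairs were chosen from among the genes described above after their values were seen, so their number is no count of how often this happens.

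**Figure D5:**
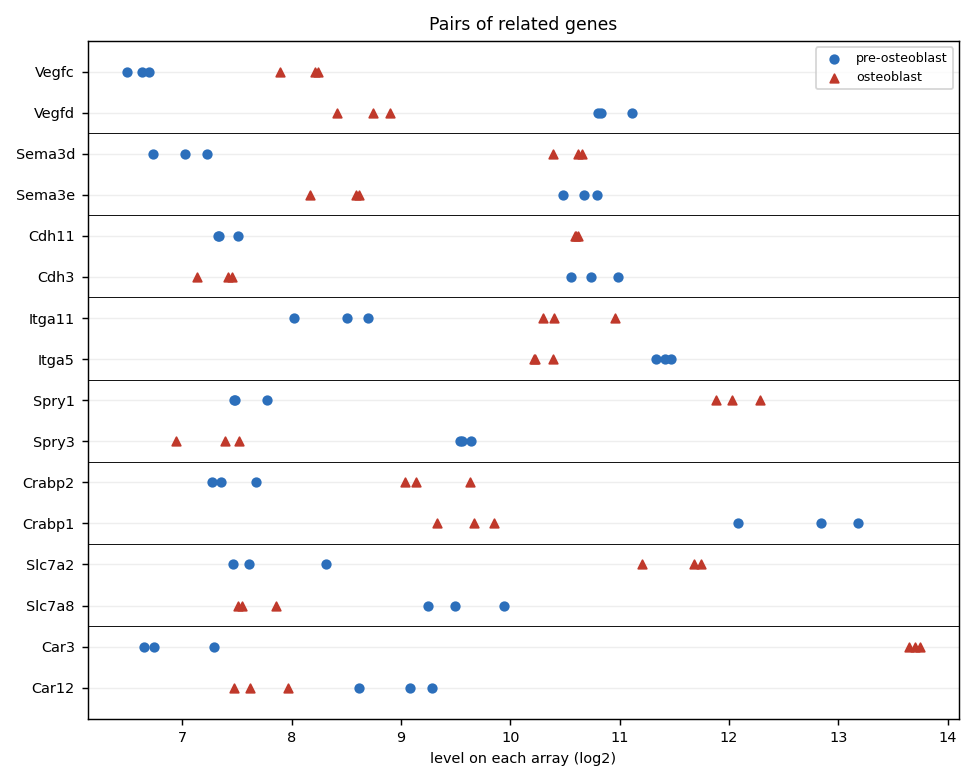
Log2 level on each Kusa4b10 array for 8 pairs of related genes, with pre-osteoblast arrays (blue circles) and osteoblast arrays (red triangles) of the member that rose (upper row of each pair) and of the member that fell (lower row). In each pair the red marks lie to the right of the blue ones in the upper row and to the left in the lower row, with no overlap.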

How the data were processed

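RNA of 9 samples was measured on mouse expression microarrays, and the 6 Kusa4b10 arrays were compared. The deposited values are log2 expression values per probe set; RMA and the build mm9 are named per the submitters' processing notes, and no version, filter or further step is known from the sources used here. Of 35556 probe sets, 21789 had 1 gene symbol, 1621 several and 12146 none. Where a gene had several, the 1 brightest on average across the 9 arrays stood for it, giving 19938 genes, with no filter on low values. Groups were compared by linear models with moderated variances (limma 3.58.1 under R 4.3.3, residual df 4), without a replicate block, with Benjamini-Hochberg adjustment over all genes and a threshold of 0.05. The number of arrays limits the precision, and array values have no read depth. RMA sets arrays to a like distribution, so differences are relative to other genes. The script was tested on simulated data. Promoter sequences are RefSeq's (GRCm38.p6), 250 bases before the start. Genes named were the markers Ibsp, Dmp1, Phex and Car3, the 40 largest rises and 40 largest falls (groups not overlapping, higher mean above the median level, clone-like names left out) and, per list or family, up to 5 rises, 5 falls and the 2 brightest members not called; the text describes a part of these. The members and lists were chosen with earlier results of these data known. Alternatives covered the filter, scaling, probe set choice, variance model, samples in the fit, replicate block and leaving out each array. One gene family is not reported here.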

Additional observations from a re-analysis of the deposited data

How the results depend on the processing

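The counts of 2523 rises and 3793 falls stayed within 1.5 times under every alternative run: 2049 and 3153 with all 9 arrays in the fit, 3247 and 3209 after quantile normalization was applied again, 2795 and 3537 with arrays centred on their median, 2068 and 3449 among the genes above the median level, and 1712 to 2467 rises and 2788 to 3519 falls without 1 array. With the replicate number as a block 2309 rose and 3574 fell. The labels do not say that the numbers mark a shared culture or day, so the samples were not treated as paired. Deviations of same-numbered arrays correlated at 0.15, 0.18 and 0.03, and those of different-numbered arrays at -0.16 to 0.08. Each pre-osteoblast array correlated best with the osteoblast array of its number, while osteoblast replicate 3 correlated best with pre-osteoblast replicate 1 (0.08). A shared batch of same-numbered arrays was not tested. Uncalled genes near 0 changed sign: Asns was 0.042 after quantile normalization, 0.027 after centring and -0.029 to 0.040 without 1 array, Tnfrsf11b was 0.066, 0.0060 and -0.30 to 0.13 in the same order, and Mmp9 was -0.010 to 0.17 without 1 array. Medians of the cadherin, serpin, TNF receptor, endothelial, epithelial and calcium, sodium and chloride channel lists also lie near 0 and change sign with the scaling, so no direction is read from them. A second probe set gave smaller differences for Etv5 (0.50) and Steap2 (-0.44). Dim probe sets limit what small differences can show.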
